A study of Mus musculus with 9 samples.

Results

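Adhesion G protein-coupled receptors and the receptors still listed under orphan Gpr symbols were compared among 3 populations of phagocytes sorted from the mouse peritoneal wall. The genes were taken by name, as every listed symbol that starts with Adgr, or with Gpr followed by a digit, without Gpr34. This gave 99 of 28764 listed symbols, 27 of them Adgr and 72 Gpr. Of the 99, 29 reached 1 TPM (a transcript level scaled for gene length and to a common library total) in at least 3 of the 9 libraries, namely 9 Adgr and 20 Gpr genes. The choice rested on names alone, but it was made with earlier results of these data known. Which of the genes could be tested depended on their level.

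G protein-coupled receptors cross the membrane in a bundle of helices and pass a signal to a heterotrimeric G protein inside the cell. Adhesion receptors add a long extracellular part, which in many of them, though not in all, is cleaved from the helices but stays bound to them. Many bind matrix or surface proteins of neighbouring cells. The F4/80 antigen, the standard surface marker of mouse macrophages, is an adhesion receptor. Orphan receptors were named before a ligand was known, and some have since been matched to protons, oxysterols or other metabolites, which in phagocytes are known for guiding position and the response to inflamed, acidic tissue.

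All cells came from F1 mice heterozygous for a green reporter at Cx3cr1 and a red one at Ccr2 (Cx3cr1gfp/+ Ccr2rfp/+), so every population carried 1 targeted copy of each of these genes. All mice had received 50 µg of labelled dextran by vein on the day before sorting, and the sources used here give no age. From CD11b-positive, Ly6G-negative cells, the double-negative population (CCR2negCX3CR1neg; dextran taken up, no surface MHC class II, 85 to 90% of that gate) is labelled as most of the sessile resident macrophages. The CCR2-RFP population (MHC class II positive, 10 to 15%) is labelled as migratory tissue monocytes, and the CX3CR1-GFP population (MHC class II positive, 0.5 to 1.5%) as sessile resident macrophages. Each had 3 libraries, from sorts 1, 2A and 2B, read as 3 mice. In what follows, values for a population are listed in the order of sorts 1, 2A and 2B.

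The description field of 6 reporter-positive samples names the other reporter-positive population. Their titles, source names and cell types all match the column headings, and these were followed. Under that reading Ccr2 was 95.4 to 115 TPM in CCR2-RFP libraries and 1.65 to 6.68 TPM in the 6 others, and Cx3cr1 was 4.13 to 16.4 TPM in CX3CR1-GFP libraries and listed at 0 in the 6 others. Of 9 macrophage marker genes, all 9 reached 1 TPM in at least 2 of 3 double-negative and CX3CR1-GFP libraries and 8 did in CCR2-RFP cells. Markers of conventional dendritic cells summed to 110 to 158 TPM in CCR2-RFP, 27.5 to 63.4 in double-negative and 11.8 to 16.1 in CX3CR1-GFP libraries, and in each population Cd209a contributed most. The reporter-positive libraries of sort 2A stood apart in skeletal muscle genes, which summed to 807 TPM in CCR2-RFP and 1383 TPM in CX3CR1-GFP cells against 33.1 to 292 TPM in the 7 other libraries, and counts of calls with sort 2A left out are given with the comparisons. The listed TPM added up to 278579 to 301604 in CX3CR1-GFP libraries and to 324050 to 382828 in the 6 others, all less than the full total of 1000000. TPM keeps no count of reads, so depth is unknown and no counting interval can be given.

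CCR2-RFP cells carried a set of these receptors that differed from both other populations. Gpr132 and Gpr35 were far higher in them, Adgre5 (CD97) was also higher, and Adgre1 (F4/80), Gpr183, Gpr160 and Adgrl2 were lower. Of these, Gpr35 could be tested only through its level in the CCR2-RFP libraries, so that it had to differ. Double-negative and CX3CR1-GFP cells differed past the threshold in 3 genes, Adgrg1, Gpr65 and Gpr165, the last of which could be tested only through its CX3CR1-GFP libraries. With all sort 2A libraries left out, none of these 3 genes was called.

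Detection was compared first. Of the 29 genes kept, 13 were at 1 TPM or more in all 9 libraries (Adgre1, Adgre5, Adgrg6, Gpr107, Gpr108, Gpr137b, Gpr137b-ps, Gpr146, Gpr155, Gpr160, Gpr180, Gpr183 and Gpr65). At least 2 of 3 libraries reached 1 TPM for 19 of the 29 genes in the double-negative population, for 24 in the CCR2-RFP population and for 22 in the CX3CR1-GFP population. Gpr35 was among 3 genes kept through the CCR2-RFP libraries alone, and Gpr165 was kept through the CX3CR1-GFP libraries alone; these 4 had to differ in order to be tested. The share kept was 29.3% of the 99 genes against 35.2% of all listed symbols.

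Of the 70 genes below the filter, 65 never reached 1 TPM, among them 7 listed at 0 in every library (Gpr119, Gpr139, Gpr142, Gpr143, Gpr151, Gpr173 and Gpr75). The 5 others reached 1 TPM in at least 1 library. Gpr18, a receptor proposed to bind arachidonic acid derivatives, was 0.799, 1.69 and 1.08 TPM in CCR2-RFP cells and at most 0.391 TPM elsewhere. Gpr84, the receptor for medium-chain fatty acids, was at most 0.209 TPM in double-negative cells, 0.635 to 1.26 TPM in CCR2-RFP and 0.412 to 1.13 TPM in CX3CR1-GFP cells. Adgrv1, the very large adhesion receptor of hair cells, reached 1.27 TPM in CX3CR1-GFP sort 2A, and Gpr19 and Gpr21 passed 1 TPM in at most 2 libraries. These low genes were not tested.

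**Figure D1:**
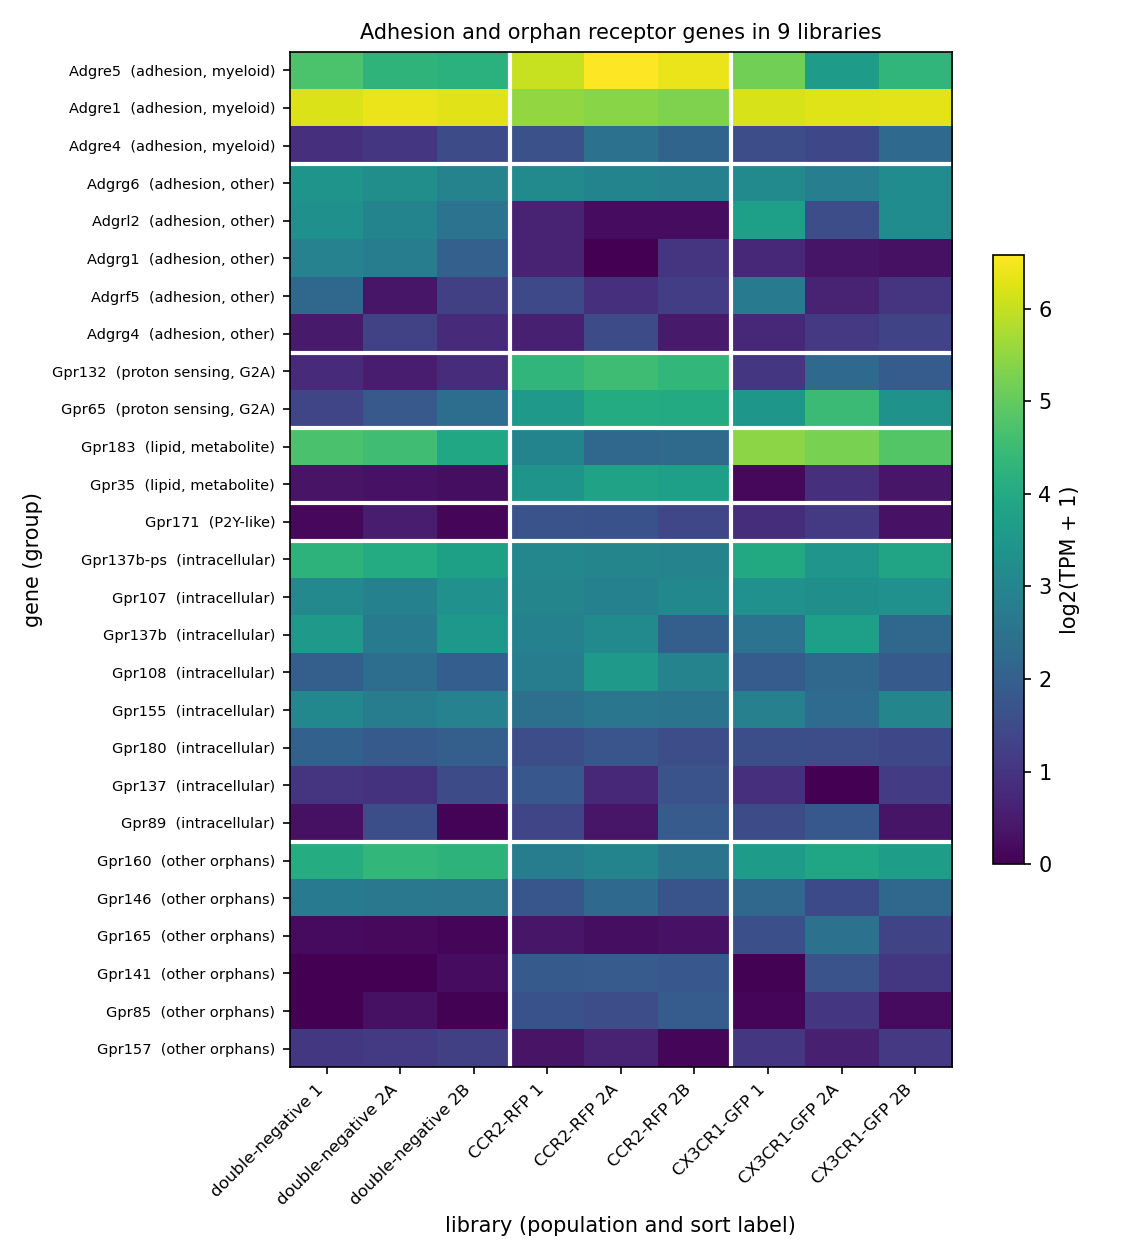
Level of 27 of the genes kept (rows, grouped by role) in each of the 9 libraries (columns, by population and sort label), as log2(TPM + 1) on a colour scale. Adgre1 and Adgre5 hold the highest values, and Gpr132 and Gpr35 are brightest in the 3 CCR2-RFP columns.

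Populations were then compared with limma on log2(TPM + 1). Adjustment ran over the 10136 genes that passed the filter, and the threshold for a call was an adjusted p of 0.05. Against double-negative cells, 18 of the 29 genes were called in CCR2-RFP cells, where 24.8% of all genes tested were. The 11 higher genes included Gpr35, Gpr132, Gpr85, Gpr65, Adgre5, Gpr171, Gpr141, Gpr108 and Adgre4 (14.9% of all genes were higher), and the 7 lower genes were Gpr160, Adgre1, Gpr183, Adgrg1, Adgrl2, Gpr137b-ps and Gpr157 (9.88% of all genes were lower). Without the 4 genes kept through 1 population, 15 were called. Among these 15 were Adgrg1, Gpr85, Gpr141, Gpr157 and Gpr171, which would also have failed the filter without the libraries of their highest population. Median log2 fold change over the 29 was 0.00, against 0.09 over all genes.

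CX3CR1-GFP and double-negative cells differed in 3 of the 29, Gpr165 and Gpr65 upward and Adgrg1 downward in CX3CR1-GFP cells, where 2.77% of all genes were called (1.16% higher and 1.61% lower). CX3CR1-GFP and CCR2-RFP cells differed in 14 of the 29, where 26.3% of all genes were called. Higher in CX3CR1-GFP cells were the 6 genes Gpr183, Adgre1, Gpr160, Gpr165, Adgrl2 and Gpr137b-ps (8.96% of all genes). Lower were 8 genes (17.3% of all genes), among them Gpr35, Gpr132, Adgre5, Gpr85, Gpr108 and Gpr171. Each comparison shares its libraries with the other comparisons. For every called gene of the 29, no library of 1 population lay within the range of the other. The share of all called genes with such a separation was not counted, so it cannot be read as a trait of these receptors.

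CCR2-RFP cells differed from both other populations in the same direction in 13 genes, 8 higher (among them Adgre5, Gpr108, Gpr132, Gpr171, Gpr35 and Gpr85) and 5 lower (Adgre1, Adgrl2, Gpr137b-ps, Gpr160 and Gpr183). Both comparisons use the same CCR2-RFP libraries, and the share of all genes with that pattern was not counted. An F test over the populations called 17 of the 29, where 27.4% of all genes were called. In 10 genes no pair of populations differed past the threshold (Adgrf5, Adgrg4, Adgrg6, Gpr107, Gpr137, Gpr137b, Gpr146, Gpr155, Gpr180 and Gpr89). The counts moved with the libraries used. Genes higher in CCR2-RFP against double-negative cells numbered 6 when CCR2-RFP 2A was left out and 7 when CCR2-RFP 2B was, and genes lower in CX3CR1-GFP against CCR2-RFP cells numbered 4 without any 1 of the 3 CCR2-RFP libraries. Gpr35 and the other genes kept through these libraries alone then left the test, and the other calls lost were those of Adgre4, Gpr108 and Gpr171. With genes kept at 1 TPM in at least 2 libraries the same counts were 10, 10 and 7 to 8. With all sort 2A libraries left out under that filter, 11 genes were higher and 8 lower in CCR2-RFP against double-negative cells, and 6 higher and 8 lower in CX3CR1-GFP against CCR2-RFP cells. Between CX3CR1-GFP and double-negative cells, limma then called 0 genes higher and 0 lower, with 2 and 3 at an unadjusted p under 0.05. Over all 10198 genes tested in that setting 38 were higher and 56 lower, against 118 and 163 of 10136 with all libraries. Dendritic cell markers moved with the differences of CCR2-RFP cells. Of 8 listed 6 were kept, and all of these but Zbtb46 were called higher in CCR2-RFP than in both other populations. Xcr1 (1.225 to 1.626 TPM there, at most 0.0826 TPM elsewhere) passed the filter through these libraries alone, so that it had to differ. Called higher in the CCR2-RFP population were 14.9% of all genes against double-negative and 17.3% against CX3CR1-GFP cells. Clec9a was 3.12 to 6.47 TPM in CCR2-RFP and at most 1.39 TPM in other libraries, and Flt3 was 1.49 to 5.44 TPM against at most 1.08 TPM. Mast cell markers summed to 6.82 to 34.0 TPM in CCR2-RFP and 0.0816 to 6.58 TPM in other libraries. Their part in the receptor differences was not tested.

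**Figure D2:**
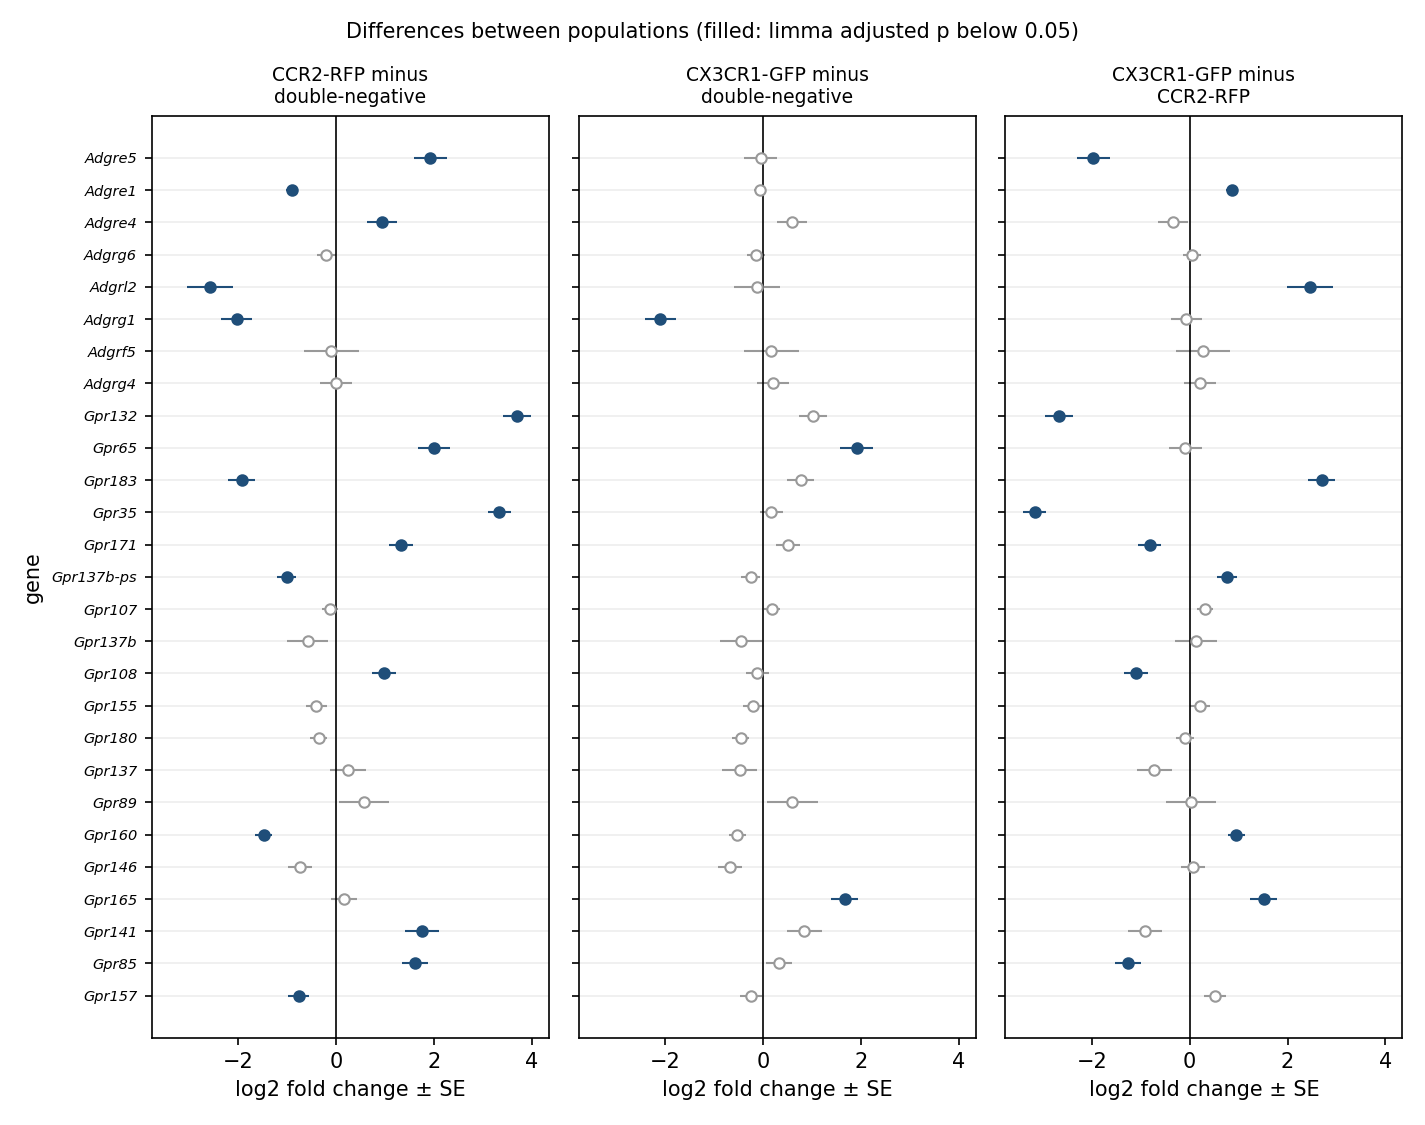
Log2 fold change (x axis, on log2(TPM + 1)) ± SE of 27 of the genes kept (y axis, grouped by role) in the 3 comparisons, with filled points for limma adjusted p below 0.05. The left and right panels hold 16 and 12 filled points, and the middle panel, CX3CR1-GFP minus double-negative, holds 3.

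Called genes showed several patterns, and the stretch upstream of the transcription start is shown for 1 gene of each of 4 patterns: Gpr35 (high in CCR2-RFP cells), Adgrg1 (high in double-negative cells), Gpr183 (low in CCR2-RFP cells) and Gpr65 (low in double-negative cells). RefSeq start sites on GRCm38.p6 gave 31 windows of 250 bases before a start for 23 of the 29 genes. Each line reads 5′ to 3′ on the strand of the gene, and capitals mark the motif matches described beneath. For Gpr35 and Adgrg1, which have more than 1 start site, the window that holds matches is the one printed. The windows are Gpr35 at chr1:92978653-92978902 (plus strand), Adgrg1 at chr8:94984149-94984398 (plus strand), Gpr183 at chr14:121965194-121965443 (minus strand) and Gpr65 at chr12:98268385-98268634 (plus strand).
Gpr35: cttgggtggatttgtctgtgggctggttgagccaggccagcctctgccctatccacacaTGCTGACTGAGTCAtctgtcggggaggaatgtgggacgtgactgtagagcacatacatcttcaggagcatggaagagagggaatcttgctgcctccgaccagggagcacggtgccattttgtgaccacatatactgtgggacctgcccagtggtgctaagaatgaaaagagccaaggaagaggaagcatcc
Adgrg1: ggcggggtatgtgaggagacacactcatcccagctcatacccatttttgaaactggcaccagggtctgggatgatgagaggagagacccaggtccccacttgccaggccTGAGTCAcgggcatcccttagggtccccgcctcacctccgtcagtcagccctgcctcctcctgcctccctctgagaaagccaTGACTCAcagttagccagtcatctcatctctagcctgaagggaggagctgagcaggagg
Gpr183: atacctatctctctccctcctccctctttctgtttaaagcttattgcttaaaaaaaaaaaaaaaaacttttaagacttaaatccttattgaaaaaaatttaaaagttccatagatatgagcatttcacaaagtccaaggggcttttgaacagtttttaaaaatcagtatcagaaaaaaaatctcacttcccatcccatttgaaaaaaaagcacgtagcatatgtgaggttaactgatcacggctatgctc
Gpr65: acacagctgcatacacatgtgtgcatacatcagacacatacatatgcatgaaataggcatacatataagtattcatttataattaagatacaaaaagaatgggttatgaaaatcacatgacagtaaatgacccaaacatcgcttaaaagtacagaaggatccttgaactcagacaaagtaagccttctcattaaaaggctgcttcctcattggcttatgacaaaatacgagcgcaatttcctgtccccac

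These windows were searched on both strands for 5 motifs that are textbook sites of macrophage transcription factors. Gpr35 holds a MAF half-site (TGCTGAC) 191 to 185 bases before the start, directly followed by an AP-1 site (TGAGTCA) at 184 to 178 bases, the letters of which do not overlap. Adgrg1 holds AP-1 sites at 141 to 135 and at 59 to 53 bases before the start. The AP-1 letters are in 4.46% and the MAF letters in 3.81% of 32851 windows of the same length over all genes; besides these genes, Adgrg4 has the former, and Gpr108 and Gpr146 have the latter. A PU.1 site (GAGGAAGT, in 2.44% of all windows) was in the Gpr137 window. The NF-kB site (0.14% of all windows) and the interferon response core (2.98%) were in none of the 31 windows. A match describes letters only.

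Among the adhesion receptors of myeloid cells, Adgre1 was lower and Adgre5 higher in CCR2-RFP cells. Adgre1 (chromosome 17, 57358691 to 57483527, plus strand) encodes F4/80. Levels were 74.4, 83.4 and 77.5 TPM in double-negative, 44.7, 41.2 and 38.6 TPM in CCR2-RFP, and 72.3, 76.1 and 78.9 TPM in CX3CR1-GFP libraries. The 3 CCR2-RFP libraries lay below all others, while the other populations overlapped. Adgre1 had a log2 fold change of -0.90 (SE 0.123, limma adjusted p = 0.000372) in CCR2-RFP against double-negative cells and 0.85 (SE 0.123, adjusted p = 0.000597) in CX3CR1-GFP against CCR2-RFP cells. The 8 other macrophage markers summed to 690 to 939 TPM in CCR2-RFP, 1549 to 1790 TPM in double-negative and 1164 to 1559 TPM in CX3CR1-GFP libraries. In sorted bulk samples, fewer cells of a type and less RNA per cell cannot be told apart.

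Adgre5 (chromosome 8, 83723251 to 83741326, minus strand) encodes CD97, a receptor of CD55 that is known for its role in leukocyte adhesion. Levels were 25.5, 18.6 and 17.5 TPM in double-negative, 64.8, 94.8 and 83.2 TPM in CCR2-RFP, and 35.0, 11.2 and 19.1 TPM in CX3CR1-GFP libraries. Every CCR2-RFP library was above every other, and the CX3CR1-GFP libraries spread around the double-negative ones. Adgre5 had a log2 fold change of 1.93 (SE 0.338, limma adjusted p = 0.00193) in CCR2-RFP against double-negative cells and -1.97 (SE 0.338, adjusted p = 0.00177) in CX3CR1-GFP against CCR2-RFP cells. On the opposite strand Ddx39 shares 895 exon bases (23.8% of the exon bases of Adgre5), and the strand of counting is not given; Ddx39 was 0.829 to 5.08 TPM.

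The order of these 2 genes within a population thus turned: the mean of Adgre1 was 78.4 ± 4.58 TPM (SD, n = 3) and that of Adgre5 20.6 ± 4.33 TPM in double-negative cells, against 41.5 ± 3.07 and 80.9 ± 15.1 TPM in CCR2-RFP cells. Of the TPM summed over all 27 adhesion receptors, Adgre1 made up 62.8 ± 5.74% in double-negative libraries, 29.0 ± 3.89% in CCR2-RFP libraries and 63.5 ± 11% in CX3CR1-GFP libraries (SD, n = 3). The sum itself was 125 ± 8.59, 144 ± 12.1 and 121 ± 18.0 TPM in that order, and it overlapped between CX3CR1-GFP and both other populations. The 72 Gpr genes summed to 99.6 ± 4.75, 113 ± 8.99 and 120 ± 15.5 TPM.

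Adgre4, a short relative of F4/80 known from monocytes and macrophages, was 0.845, 1.06 and 1.86 TPM in double-negative, 2.12, 4.62 and 3.33 TPM in CCR2-RFP, and 1.95, 1.69 and 3.72 TPM in CX3CR1-GFP libraries. The lowest CCR2-RFP library was just above the highest double-negative one. The log2 fold change of 0.94 (SE 0.301, limma adjusted p = 0.0455) lost its call without any 1 of these libraries: double-negative 1 (adjusted p = 0.147) or 2A (0.126), CCR2-RFP 2A (0.155) or 2B (0.115) or CX3CR1-GFP 1 (0.0551), and under median-of-ratios and quantile scaling (adjusted p = 0.0717 and 0.0687). Over all alternatives its adjusted p ran from 0.0318 to 0.241.

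Among the other adhesion receptors, 24 genes in all, 6 were kept, and Adgrg1 and Adgrl2 had different patterns. Adgrg1 (chromosome 8, 94974751 to 95014217, plus strand), also named GPR56, binds collagen III and transglutaminase 2 and is known from nerve progenitors and cytotoxic lymphocytes. Levels were 6.61, 5.83 and 3.05 TPM in double-negative, 0.535, 0.0106 and 1.00 TPM in CCR2-RFP, and 0.694, 0.305 and 0.223 TPM in CX3CR1-GFP libraries. All 3 double-negative libraries were above the 6 reporter-positive ones. Adgrg1 had a log2 fold change of -2.03 (SE 0.316, limma adjusted p = 0.000924) in CCR2-RFP and -2.09 (SE 0.316, adjusted p = 0.00646) in CX3CR1-GFP cells, both against double-negative cells. The latter call was lost with the sort 2A libraries left out (adjusted p = 0.0658) and at a pseudocount of 0.1 (adjusted p = 0.0556). The 7 listed T and NK cell markers summed to 2.04 to 2.77 TPM in double-negative, 3.09 to 8.19 TPM in CCR2-RFP and 2.48 to 5.76 TPM in CX3CR1-GFP libraries, with Nkg7 and Ncr1 at 0 in all double-negative libraries and Cd3d at 0.544 to 1.78 TPM there. Their part in the level of Adgrg1 was not tested.

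Adgrl2 encodes latrophilin 2, which binds teneurins and FLRT proteins at synapses. Levels were 8.95, 6.88 and 4.67 TPM in double-negative, 0.572, 0.155 and 0.157 TPM in CCR2-RFP, and 12.1, 1.92 and 8.12 TPM in CX3CR1-GFP libraries. CCR2-RFP libraries were below all others, and CX3CR1-GFP 2A, a library with high muscle genes, was below the other libraries of its population. CCR2-RFP 2A, also high in muscle genes, was at 0.155 TPM beside 0.157 TPM in CCR2-RFP 2B. A part of muscle RNA was not tested. Adgrl2 had a log2 fold change of -2.58 (SE 0.473, limma adjusted p = 0.00257) in CCR2-RFP against double-negative cells and 2.46 (SE 0.473, adjusted p = 0.00354) in CX3CR1-GFP against CCR2-RFP cells; the latter was 3.09 without CX3CR1-GFP 2A (adjusted p = 0.000121).

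Adgrg6, Adgrf5 and Adgrg4 were called in no comparison. Adgrg6 (GPR126, known from Schwann cell myelination) was 8.24 ± 1.45 TPM in double-negative, 7.03 ± 0.720 TPM in CCR2-RFP and 7.36 ± 1.12 TPM in CX3CR1-GFP cells. Adgrf5 (GPR116, known from lung surfactant control and endothelium) varied by library, from 0.326 to 5.65 TPM. Its 2 highest values, 3.61 TPM in double-negative 1 and 5.65 TPM in CX3CR1-GFP 1, were in the libraries with the highest sums of 7 endothelial markers (5.27 and 7.16 TPM, against 1.06 to 3.76 TPM in the 7 others). Pecam1, Cdh5 and Kdr were highest in the same pair of libraries, while Egfl7, the 1 marker that passed the filter, and Emcn, Tek and Vwf were not. A part of endothelial RNA was not tested. Adgrg4 was 0.392 to 1.82 TPM.

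**Figure D3:**
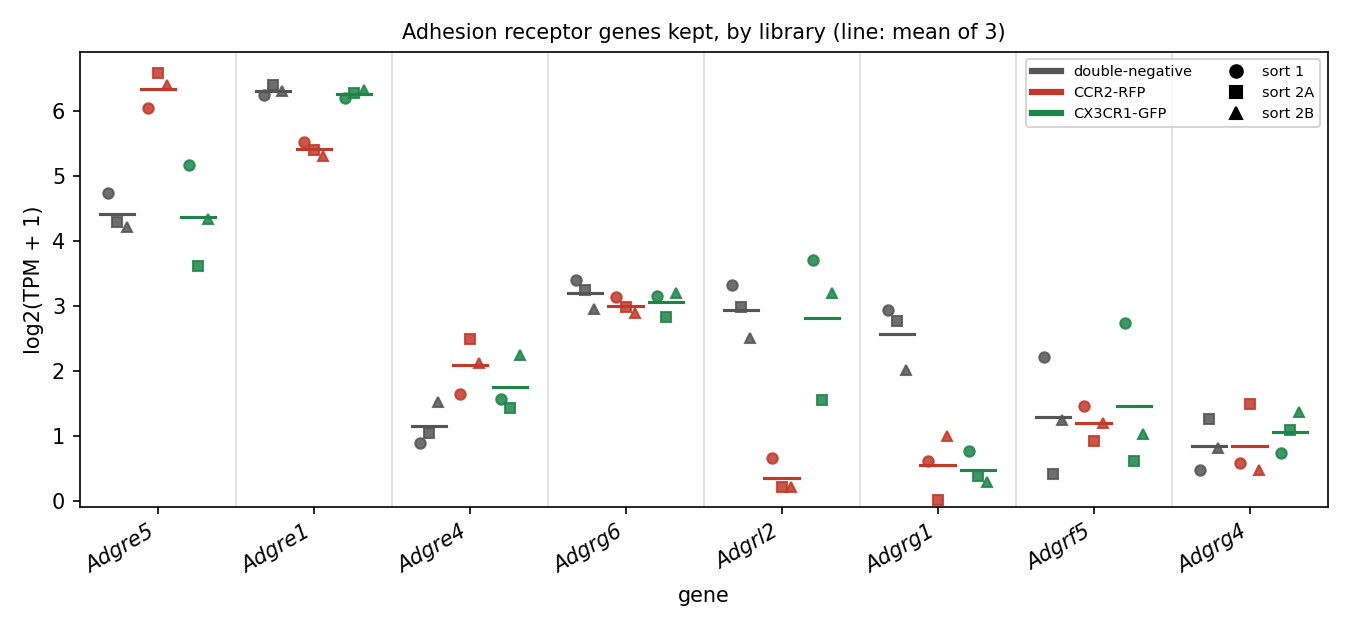
Level of 8 of the adhesion receptor genes kept, as log2(TPM + 1) on the y axis, with 1 point per library (colour, population; shape, sort label) and a line at the mean of 3. CCR2-RFP points are lowest for Adgre1 and Adgrl2 and highest for Adgre5, and double-negative points are highest for Adgrg1.

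In the family of proton-sensing receptors and their relative G2A, Gpr132 and Gpr65 were higher in CCR2-RFP cells, and Gpr65 was higher in CX3CR1-GFP cells as well, all against double-negative cells. Gpr4, also of this family, was at most 0.308 TPM in every library. Gpr132 (G2A), known as a receptor of oxidised fatty acids and of lactate in macrophages, was 0.755, 0.430 and 0.769 TPM in double-negative, 19.3, 22.2 and 19.4 TPM in CCR2-RFP, and 1.07, 3.78 and 2.77 TPM in CX3CR1-GFP libraries. The 3 populations did not overlap. Gpr132 had a log2 fold change of 3.69 (SE 0.286, limma adjusted p = 1.16e-05) in CCR2-RFP against double-negative cells and -2.67 (SE 0.286, adjusted p = 9e-05) in CX3CR1-GFP against CCR2-RFP cells. Between CX3CR1-GFP and double-negative cells it was 1.02 (SE 0.286, adjusted p = 0.0999), and 1.37 (adjusted p = 0.0156) without CX3CR1-GFP 1.

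Gpr65 (TDAG8), which raises cyclic AMP in acid surroundings, was 1.60, 2.55 and 4.24 TPM in double-negative, 10.6, 15.5 and 15.2 TPM in CCR2-RFP, and 10.2, 21.3 and 9.31 TPM in CX3CR1-GFP libraries. Double-negative libraries were below all 6 reporter-positive libraries, which overlapped with each other. Gpr65 had a log2 fold change of 2.00 (SE 0.336, limma adjusted p = 0.00150) in CCR2-RFP and 1.91 (SE 0.336, adjusted p = 0.0148) in CX3CR1-GFP cells, both against double-negative cells, and -0.09 (SE 0.336, adjusted p = 0.879) between the reporter-positive populations. The call in CX3CR1-GFP cells was lost without double-negative 1 (adjusted p = 0.0677), without 2A of that population (0.0607) and with the sort 2A libraries left out (log2 fold change 1.55, adjusted p = 0.118), and with no filter on low values (0.0626). A transcript on the opposite strand, Gm47566, overlaps 24.7% of its exon bases and has no value here.

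Of the 10 receptors of lipids and metabolites, 2 were kept, and they moved in opposite directions in CCR2-RFP cells. Gpr35, known to respond to kynurenic acid, a tryptophan metabolite, was 0.280, 0.249 and 0.174 TPM in double-negative, 9.54, 12.9 and 12.2 TPM in CCR2-RFP, and 0.0970, 0.843 and 0.326 TPM in CX3CR1-GFP libraries. No other library came near the CCR2-RFP ones, and Gpr35 passed the filter through these alone, so that it had to differ. Gpr35 had a log2 fold change of 3.34 (SE 0.231, limma adjusted p = 6.62e-06) in CCR2-RFP against double-negative cells and -3.16 (SE 0.231, adjusted p = 1.07e-05) in CX3CR1-GFP against CCR2-RFP cells. Fold changes of genes this low are understated by the 1 TPM added before the logarithm.

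Gpr183 (EBI2), the receptor by which lymphocytes and dendritic cells follow gradients of an oxysterol made by Ch25h and Cyp7b1, was 25.1, 22.7 and 14.3 TPM in double-negative, 6.82, 3.59 and 3.80 TPM in CCR2-RFP, and 42.3, 37.3 and 27.3 TPM in CX3CR1-GFP libraries. The 3 populations did not overlap, and CX3CR1-GFP cells had the highest values. Gpr183 had a log2 fold change of -1.93 (SE 0.274, limma adjusted p = 0.000521) in CCR2-RFP against double-negative cells and 2.70 (SE 0.274, adjusted p = 6.61e-05) in CX3CR1-GFP against CCR2-RFP cells. Between CX3CR1-GFP and double-negative cells it was 0.77 (SE 0.274, adjusted p = 0.206).

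Enzymes that make or remove this oxysterol or related ones were read beside the receptor. Of 5 listed, 3 were kept (Ch25h, Cyp27a1 and Hsd3b7). Ch25h, which makes the precursor, was 0.366, 0 and 0 TPM in double-negative, 0, 0 and 0.423 TPM in CCR2-RFP, and 3.61, 3.01 and 1.47 TPM in CX3CR1-GFP libraries, the population with the highest Gpr183. Its log2 fold change was 1.69 against double-negative cells (SE 0.276, limma adjusted p = 0.0101) and 1.67 against CCR2-RFP cells (SE 0.276, adjusted p = 0.00141). Ch25h passed the filter through the CX3CR1-GFP libraries alone, so that it had to differ. Cyp27a1, a sterol hydroxylase of mitochondria, was 26.6, 28.9 and 28.6 TPM in double-negative, 8.83, 9.52 and 6.90 TPM in CCR2-RFP, and 20.2, 22.3 and 27.6 TPM in CX3CR1-GFP libraries. It was lowest in the 3 CCR2-RFP libraries, as was Gpr183, and fell by 1.64 on the log2 scale (SE 0.169, limma adjusted p = 6.14e-05) against double-negative cells. Cyp7b1, which acts after Ch25h, was at most 0.174 TPM.

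Gpr171, an orphan that resembles P2Y receptors, was 0.101, 0.441 and 0.0638 TPM in double-negative, 2.22, 2.183 and 1.65 TPM in CCR2-RFP, and 0.828, 1.15 and 0.250 TPM in CX3CR1-GFP libraries. CCR2-RFP libraries were highest. Gpr171 had a log2 fold change of 1.34 (SE 0.244, limma adjusted p = 0.00245) in CCR2-RFP against double-negative cells. In CX3CR1-GFP against CCR2-RFP cells it was -0.82 (SE 0.244, adjusted p = 0.0311), a call lost without CCR2-RFP 1 (adjusted p = 0.0970), 2A (0.0884) or 2B (0.0534) and without CX3CR1-GFP 1 (0.0525) or 2B (0.0956). Over all alternatives the adjusted p of that difference ran from 0.0171 to 0.152. The gene lies on chromosome 3, 59096448 to 59101821, beside P2ry14, which was 0.565 to 0.668 TPM in CCR2-RFP and 1.71 to 2.86 TPM in double-negative cells. Gpr17 and Gpr174, which also resemble P2Y receptors, stayed under the filter.

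Of the other orphans, Gpr160 was lower in CCR2-RFP cells, Gpr85 and Gpr141 were higher there, and Gpr165 was higher in CX3CR1-GFP cells. Gpr160 was 15.8, 19.6 and 18.1 TPM in double-negative, 5.84, 6.77 and 4.80 TPM in CCR2-RFP, and 11.1, 13.6 and 11.6 TPM in CX3CR1-GFP libraries. The populations formed 3 steps without overlap. Gpr160 had a log2 fold change of -1.47 (SE 0.171, limma adjusted p = 0.000133) in CCR2-RFP against double-negative cells, 0.95 (SE 0.171, adjusted p = 0.00235) in CX3CR1-GFP against CCR2-RFP cells and, not called, -0.52 (SE 0.171, adjusted p = 0.167) in CX3CR1-GFP against double-negative cells.

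Gpr165, an orphan with no assigned ligand, was 0.149, 0.119 and 0.0659 TPM in double-negative, 0.312, 0.178 and 0.245 TPM in CCR2-RFP, and 2.07, 4.61 and 1.57 TPM in CX3CR1-GFP libraries. Only CX3CR1-GFP libraries passed 1 TPM, so that Gpr165 had to differ in order to be tested. Gpr165 had a log2 fold change of 1.67 (SE 0.272, limma adjusted p = 0.0101) against double-negative and 1.51 (SE 0.272, adjusted p = 0.00238) against CCR2-RFP cells. With the sort 2A libraries left out, the former was 1.34 (adjusted p = 0.0581), and with no filter on low values its adjusted p was 0.0531.

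Gpr85 (SREB2), known from the brain and conserved among vertebrates, was 0, 0.231 and 0.0203 TPM in double-negative, 2.181, 1.94 and 2.79 TPM in CCR2-RFP, and 0.0739, 1.05 and 0.151 TPM in CX3CR1-GFP libraries. Its log2 fold change was 1.61 (SE 0.264, limma adjusted p = 0.00130) in CCR2-RFP against double-negative cells and -1.27 (SE 0.264, adjusted p = 0.00547) in CX3CR1-GFP against CCR2-RFP cells. Gpr141 was 0.0172, 0 and 0.168 TPM in double-negative, 2.64, 2.68 and 2.44 TPM in CCR2-RFP, and 0.0187, 2.23 and 1.11 TPM in CX3CR1-GFP libraries. The CCR2-RFP libraries lay close together, while the CX3CR1-GFP ones ran from near 0 to almost their level. The log2 fold change of Gpr141 was 1.76 (SE 0.350, adjusted p = 0.00412) in CCR2-RFP against double-negative cells. In CX3CR1-GFP against double-negative cells it was 0.85 (adjusted p = 0.284), and 1.30 (adjusted p = 0.0314) without CX3CR1-GFP 1. With that library left out, 3 genes were higher in CX3CR1-GFP than in double-negative cells (Gpr65, Gpr132 and Gpr141), and Gpr165 was not tested.

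Gpr157 and Gpr146 were lower genes near the threshold. Gpr157 was 1.21 ± 0.144 TPM (SD, n = 3) in double-negative, 0.318 ± 0.251 TPM in CCR2-RFP and 0.890 ± 0.338 TPM in CX3CR1-GFP cells. Its log2 fold change of -0.76 (SE 0.219, limma adjusted p = 0.0280) in CCR2-RFP against double-negative cells had an adjusted p of 0.0514 with the sort as a block. It was also lost without double-negative 1, 2A or 2B (adjusted p = 0.0595, 0.0733 and 0.0835) and without CCR2-RFP 1 or 2B (0.0828 and 0.114). Gpr146, known from the control of plasma cholesterol by the liver, was 5.52, 5.24 and 5.07 TPM in double-negative, 2.36, 3.79 and 2.30 TPM in CCR2-RFP, and 3.66, 1.81 and 3.63 TPM in CX3CR1-GFP libraries. Its double-negative libraries were above all others, and the log2 fold change of -0.74 in CCR2-RFP cells (SE 0.248, adjusted p = 0.0536) passed without CCR2-RFP 2A (adjusted p = 0.0380) or CX3CR1-GFP 2A (0.0199).

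**Figure D4:**
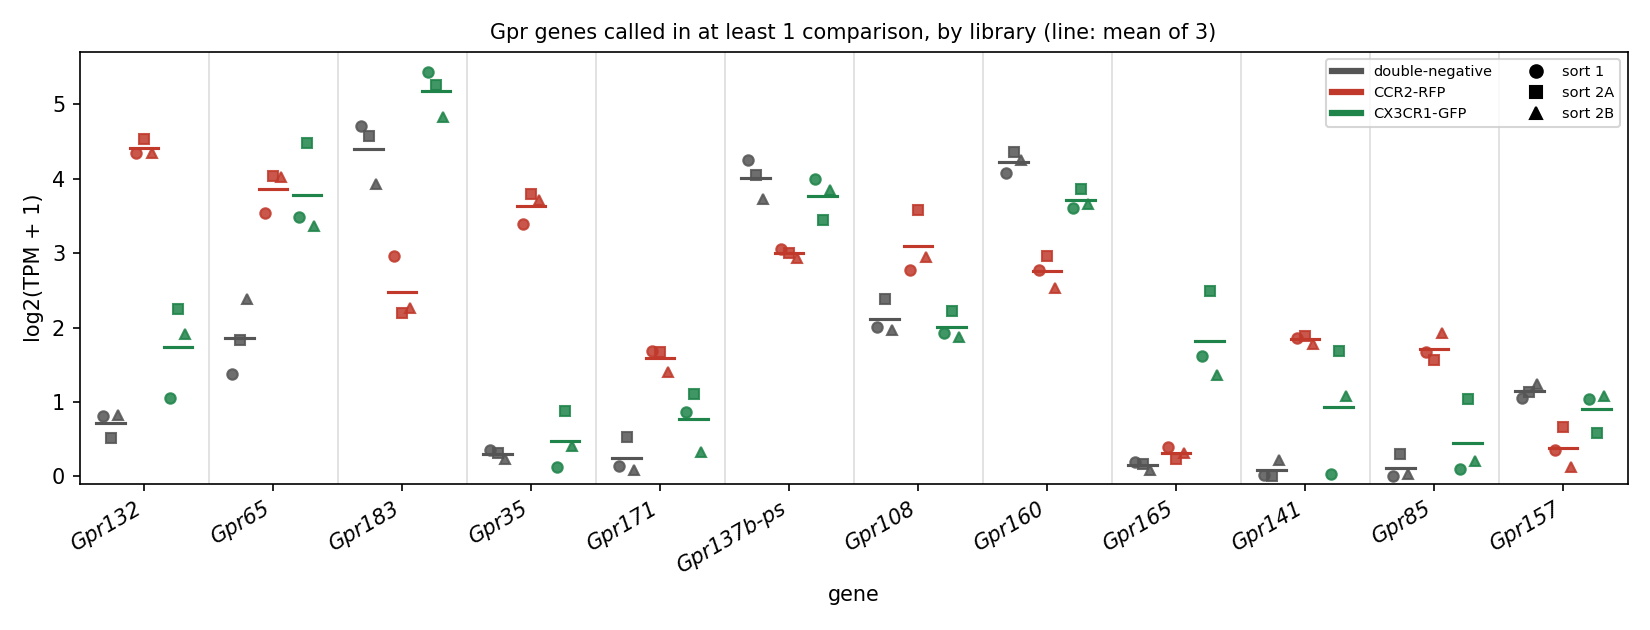
Level of 12 Gpr genes called in at least 1 comparison, as log2(TPM + 1) on the y axis, with 1 point per library (colour, population; shape, sort label) and a line at the mean of 3. CCR2-RFP points stand alone at the top for Gpr132 and Gpr35, and Gpr165 is above 1 TPM only in CX3CR1-GFP cells.

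A last group carries Gpr names but encodes membrane proteins of the Golgi or lysosome or with no classical receptor role. Of 10 listed, 8 were kept, and 6 of these were called in no comparison. Gpr108, a Golgi protein, was 3.01, 4.21 and 2.90 TPM in double-negative, 5.84, 10.9 and 6.75 TPM in CCR2-RFP, and 2.79, 3.69 and 2.65 TPM in CX3CR1-GFP libraries. All CCR2-RFP libraries were above the rest. Gpr108 had a log2 fold change of 0.99 (SE 0.244, limma adjusted p = 0.0134) in CCR2-RFP against double-negative cells, a call that did not hold with double-negative 1 (adjusted p = 0.0507) or 2B (0.0506) or CCR2-RFP 2A (0.0503) left out, nor when TPM was rescaled without mitochondrial and ribosomal protein genes and Siglece (0.0564). In CX3CR1-GFP against CCR2-RFP cells it was -1.09 (SE 0.244, adjusted p = 0.00779). Its relative Gpr107 was 6.44 to 9.001 TPM across all 9 libraries.

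Gpr137b-ps, annotated as a transcribed pseudogene of the lysosomal protein gene Gpr137b, was 18.1, 15.5 and 12.3 TPM in double-negative, 7.33, 7.04 and 6.67 TPM in CCR2-RFP, and 15.0, 9.87 and 13.5 TPM in CX3CR1-GFP libraries. CCR2-RFP libraries were below all others. Gpr137b-ps had a log2 fold change of -1.01 (SE 0.196, limma adjusted p = 0.00360) in CCR2-RFP against double-negative cells and 0.76 (SE 0.196, adjusted p = 0.0162) in CX3CR1-GFP against CCR2-RFP cells. The latter was lost without CCR2-RFP 2B (adjusted p = 0.0550) or CX3CR1-GFP 1 (0.0582). Gpr137b was 3.01 to 12.04 TPM with overlap among all populations. Of all 31-base stretches, 36.3% in Gpr137b and 37.8% in the pseudogene occur in other genes, so that the split of reads between the pair is uncertain.

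The other genes of this group were called in no comparison. Gpr155, a lysosomal cholesterol sensor, was 6.58 ± 0.828 TPM in double-negative, 4.72 ± 0.308 TPM in CCR2-RFP and 5.75 ± 1.58 TPM in CX3CR1-GFP cells. Gpr180 was 2.93 ± 0.277, 2.07 ± 0.209 and 1.87 ± 0.141 TPM in the same order, and not called. Among low genes, Gpr137, a lysosomal protein that shares 15.4% of its exon bases with Bad on the opposite strand, was 0 to 2.43 TPM, and Gpr89, a channel that keeps the Golgi acidic and that shares 24.8% with Pdzk1, was 0.0379 to 2.70 TPM.

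Genes that act with these receptors were read from lists chosen for their role. Of 18 ligands and partners of adhesion receptors, 8 were kept. Flrt3 and Tenm4, both partners of latrophilins, were higher in CCR2-RFP cells when set against double-negative ones, and 6 were not called. Flrt3 was 2.42, 3.93 and 2.58 TPM in CCR2-RFP and at most 0.495 TPM in the 6 other libraries (log2 fold change 1.71, SE 0.219, limma adjusted p = 0.000261, against double-negative cells). Tenm4 was 1.61, 1.08 and 5.97 TPM in CCR2-RFP and at most 0.0906 TPM elsewhere (1.69, SE 0.374, adjusted p = 0.00745). Both were high where Adgrl2 was low. Both passed the filter through the CCR2-RFP libraries alone, so that they had to differ. Of all genes, 24.8% were called in this comparison. The list's median log2 fold change was -0.19, against 0.09 over all genes.

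Among G protein subunits, Gna12 was lower in CCR2-RFP cells than in both other populations. Of 13 alpha subunits 9 were kept. Gna12, known from signalling to the cytoskeleton, was 16.9, 19.1 and 17.0 TPM in double-negative, 5.62, 7.59 and 10.2 TPM in CCR2-RFP, and 29.4, 22.8 and 22.3 TPM in CX3CR1-GFP libraries. It was lowest in every CCR2-RFP library (log2 fold change -1.11, SE 0.206, limma adjusted p = 0.00265, against double-negative cells), and the 8 other alpha subunits were not called there, where 24.8% of all genes were called. In CX3CR1-GFP against CCR2-RFP cells Gna12 was higher, Gnai2 and Gnai3 were lower and 6 were not called, where 26.3% of all genes were called. Of 8 beta and gamma subunits kept, Gnb1 and Gng10 were higher and Gng12 was lower in CCR2-RFP against double-negative cells. Median log2 fold changes there were -0.16 for alpha and 0.16 for beta and gamma subunits.

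Among regulators of signal decay, Rgs1, Grk3 and others were higher in CCR2-RFP cells. Of 16 RGS proteins, which speed up the return of the G protein to rest, 8 were kept; against double-negative cells, 3 were higher (Rgs1, Rgs2 and Rgs14), 2 lower (Rgs3 and Rgs10) and 3 not called in CCR2-RFP cells, where 14.9% of all genes were higher and 9.88% lower. Rgs1 was 5.84, 1.42 and 5.77 TPM in double-negative, 78.2, 52.6 and 72.1 TPM in CCR2-RFP, and 18.0, 13.3 and 11.4 TPM in CX3CR1-GFP libraries, in 3 steps without overlap. Its log2 fold change was 3.81 (SE 0.372, limma adjusted p = 4.20e-05) in CCR2-RFP cells and 1.64 in CX3CR1-GFP cells (SE 0.372, adjusted p = 0.0476), both against double-negative cells. Of 7 receptor kinases and arrestins kept, which switch active receptors off, Grk3 and Grk5 were higher, Arrb2 lower and 4 not called in CCR2-RFP against double-negative cells, with the same shares over all genes. Grk3 was at most 0.216 TPM in double-negative cells, 2.05 to 2.40 TPM in CCR2-RFP and 1.59 to 3.33 TPM in CX3CR1-GFP libraries.

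Between CX3CR1-GFP and double-negative cells, 2.77% of all genes were called. In the same lists the calls were Ch25h among 3 oxysterol enzymes kept, Grk3 among 7 kinases and arrestins, and Rgs1 and Rgs2 among 8 RGS proteins, all higher in CX3CR1-GFP cells. None of the 8 ligands and partners, 9 alpha subunits or 8 beta and gamma subunits was called by limma, and at an unadjusted p under 0.05 the counts were 0, 1 and 1. These lists were chosen by the role of their genes, with earlier results of these data known, and their counts describe the genes in them.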

How the data were processed

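RNA of 3 sorted populations, 3 libraries each, was read as paired 75-base reads from 1 ng of RNA. Per the submitters' processing notes, the authors used bcl2fastq 2.18, cutadapt 1.8.3 and Salmon 0.11.3 on genome build mm10. They deposited TPM per gene symbol; annotation, summing of transcripts to genes and strand were not given in the sources used here. Libraries were grouped by the population in title and column heading. No column was left out.

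The model was limma 3.58.1 (R 4.3.3) on log2(TPM + 1) (a mean per population over all 9 libraries, eBayes with trend, two-sided, Benjamini-Hochberg adjustment over the 10136 genes reaching 1 TPM in 3 or more libraries). The code was tested on simulated data. The p-values rest on 3 libraries per population, and no depth is known. The members and gene lists were chosen with earlier results of these data known. A few genes counted in the totals are not reported here. Every other kept member was to be named: those called with a mean of at least 2 TPM in their highest population with each library's value, the others by mean or range, those under the filter only where a library reached 1 TPM, and of each pathway list up to 4 called genes by smallest p. Coordinates are from GENCODE M21 (GRCm38, the assembly of mm10), where all 29 genes matched, and promoter sequences from RefSeq (GRCm38.p6).

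The series' design text has the same 3 mice sorted into every population, so the sort label pairs the libraries. Deviations from population means correlated at 0.03 to 0.21 between libraries of the same sort (9 pairs) and at -0.16 to 0.11 between those of different sorts (18 pairs). Alternatives were pseudocounts of 0.1 and 5, no filter, a filter at 5 TPM, 3 other scalings, each library left out, no intensity trend, a fit to the 2 populations compared alone, and the sort as a block. Added after seeing the data were the sort 2A libraries left out, and reporter-positive libraries left out, with genes kept at 1 TPM in at least 2 libraries.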

Additional observations from a re-analysis of the deposited data

How the results depend on the processing

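Of 1049 values of single genes under other settings, 972 kept their side of the threshold, 55 lost a call, 22 gained one and 0 changed direction while called. With a filter at 5 TPM, 16 members were detected, and 34 at 0.5 TPM. At that 5 TPM filter, fewer genes were tested: 6 were higher in CCR2-RFP against double-negative cells, 1 higher and 0 lower in CX3CR1-GFP than in double-negative cells (limma; 3 and 2 at an unadjusted p under 0.05), 5 lower in CX3CR1-GFP than in CCR2-RFP cells, and 11 differed in the F test. In CX3CR1-GFP against double-negative cells, 0 genes were higher without the filter and 0 higher and 0 lower with the sort 2A libraries left out (limma; 6, then 2 and 3, at an unadjusted p under 0.05), and 0 were lower at a pseudocount of 0.1 (4 unadjusted); the cause was not tested.

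With 1 library left out, genes higher and lower numbered 6 to 11 and 6 to 8 in CCR2-RFP against double-negative cells, 1 to 3 and 1 to 1 in CX3CR1-GFP against double-negative cells, and 4 to 6 and 4 to 9 in CX3CR1-GFP against CCR2-RFP cells, and 14 to 18 differed in the F test. With genes kept at 1 TPM in at least 2 libraries, leaving out 1 reporter-positive library gave 10 to 13 and 6 to 8, 2 to 4 and 1 to 1, 5 to 6 and 7 to 10, and 17 to 20 in the same order; the 4 came without CX3CR1-GFP 1.

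With the replicate block, the counts of higher and lower genes were 11 and 6 in CCR2-RFP against double-negative cells, 2 and 1 in CX3CR1-GFP against double-negative cells, and 6 and 8 in CX3CR1-GFP against CCR2-RFP cells; Gpr157 lost its call and no other call was lost. Of all called genes, 60.2% were higher in CCR2-RFP against double-negative cells, against 52.2% with median-of-ratios scaling, 49.4% with quantile normalization and 43.0% when rescaled without mitochondrial and ribosomal protein genes and Siglece. In CX3CR1-GFP against CCR2-RFP cells the shares were 34.1%, 45.2%, 48.9% and 58.5%, and in CX3CR1-GFP against double-negative cells 42.0%, 50.0%, 50.9% and 50.2%. Siglece alone was listed at 102800 to 123900 TPM in double-negative, 103400 to 115600 TPM in CCR2-RFP and 61110 to 87910 TPM in CX3CR1-GFP libraries. The rescaling moved the median log2 fold change of all genes from 0.09 to -0.15 in CCR2-RFP against double-negative and from -0.11 to 0.19 in CX3CR1-GFP against CCR2-RFP cells, and no called member turned its direction under it. Depth is unknown, so no limit of detection can be given, and 3 libraries per population set the precision.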
